A study of Marchantia polymorpha with 18 samples.

Results

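The change in gene expression that followed crushing was measured in the Mpglr-9 mutant of the liverwort Marchantia polymorpha, by comparing crushed thallus lobes with thallus of intact plants of the same genotype. The comparison was defined by the labels alone and took 6 of the 18 libraries of the study, 3 from crushed lobes and 3 from intact thallus. The thallus is the flat plant body, and its lobes grow out from notches that hold the dividing cells. In Mpglr-9 a deletion was made by CRISPR-Cas editing of MpGLR, which encodes a glutamate receptor-like protein, and Mpglr-9 is the 1 mutant allele that the labels name. Plants had grown for 28 days on soil. Wounding meant crushing 2 lobes of a plant with serrated forceps, and these lobes were collected 4 h later. Intact Mpglr-9 plants were sampled at the same time, and untouched lobes next to the crushed ones gave 3 further Mpglr-9 libraries. Wild-type plants were sampled in the same 3 ways. Each library pooled tissue of 9 plants, and the study calls the libraries of a group independent biological replicates. A crushed lobe holds crushed cells beside cells that the forceps did not reach, and the libraries do not separate them. MpGLR itself is not among the gene names used, so the genotype labels could not be checked on the counts.

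In plants a wound releases fatty acids from membranes. Lipoxygenases add oxygen to them, allene oxide synthases turn the products into unstable allene oxides, and cyclisation then gives oxylipin hormones. In Marchantia the hormone is dinor-OPDA rather than the jasmonoyl-isoleucine of flowering plants. It is perceived by MpCOI1, which marks the repressor MpJAZ for destruction. Glutamate receptor-like proteins are cation channels that carry wound signals between organs in Arabidopsis. Phenolic metabolism is the other classical wound output, and it draws phenylalanine from the shikimate pathway in the plastid.

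Intact Mpglr-9 libraries held 26861344 to 27856158 counts and crushed ones 21678546 to 22632143, so that every crushed library was shallower than every intact one. Levels are given in CPM, read counts scaled to a common library size by TMM, a scaling that assumes that most genes keep their level. Changes are log2 fold changes of crushed against intact lobes with their standard error (SE), and called genes are those with an adjusted p under 0.05 (edgeR quasi-likelihood test, Benjamini-Hochberg over 13450 tested genes). The first principal component of the 6 libraries held 76.6% of the variance and placed the intact ones between -53 and -47.5 and the crushed ones between 41.2 and 62.5. The second held 12.6% and set intact replicate 3 apart, at 38.9. Crushed replicate 3 was shifted the same way, to 14.7, while the remaining libraries lay at -7.2 or below. Values that move by over 1.5 times without intact replicate 3, or any other library, are given both ways. Members named only to complete a count of 5 or fewer were chosen after their values were seen.

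After crushing, small changes in Mpglr-9 went upward and downward in like numbers, while large changes were mostly upward. Of the tested genes 7369 were called, or 54.8%. These were 3712 higher (27.6% of all tested) and 3657 lower (27.2%), with a median log2 change of 0.47 among the higher and -0.55 among the lower. Under upper-quartile scaling the split was 37.8% higher among the calls against 50.4% with TMM, and the median of all genes stood at -0.117 instead of -0.02. Small changes therefore have a direction only relative to the scaling. At 2-fold or more 943 genes were higher (7.01%) and 605 lower (4.50%). At 4-fold or more 426 were higher (3.17%) and 83 lower (0.617%), and at 8-fold or more 225 were higher (1.67%) and 25 lower (0.186%).

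The 943 genes that were at least 2-fold higher took 2.985% to 3.05% of the counts in the intact libraries and 11.57% to 14.43% in the crushed ones. In untouched lobes they took 2.913% to 3.183%. The 605 genes that were at least 2-fold lower went from 5.975% to 6.311% down to 2.208% to 2.925%. These genes were chosen by this change, so the shares describe its weight in the libraries and test nothing. In wild-type libraries, which shared the filter, the scaling and the estimate of spread but not the fold change used, the 943 genes took 3.012% to 3.209% of the counts in intact thallus and 11.36% to 14.38% in crushed lobes.

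**Figure D1:**
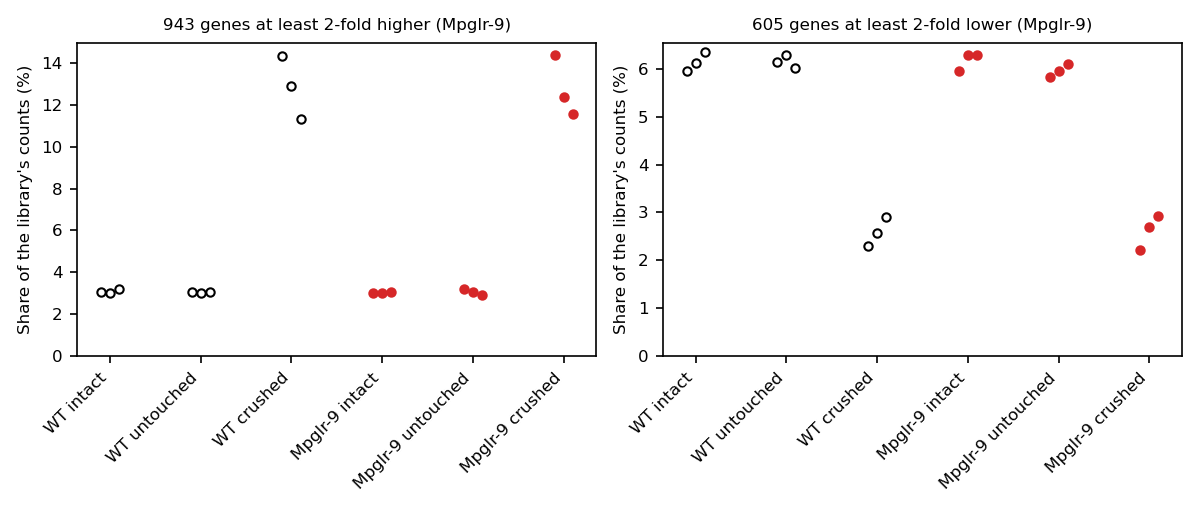
Share of each library's counts (%) held by the 943 genes at least 2-fold higher (left) and the 605 genes at least 2-fold lower (right) in crushed Mpglr-9 lobes, for all 18 libraries, with 1 point per library (open circles wild type, red Mpglr-9). In both genotypes the crushed libraries stand apart from the intact and untouched ones, at 11.36% or more on the left and 2.925% or less on the right.

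Genes for cutting membrane phospholipids and for desaturating and oxidising fatty acids held several strong rises and a few smaller falls. MpPLD1 encodes a phospholipase D, an enzyme that cuts the head group from membrane phospholipids. It stood at 4.7, 4.75 and 7.29 CPM in intact thallus and 27.9, 23.6 and 20.8 CPM in crushed lobes, a log2 change of 2.11 ± 0.17. Among 6 tested phospholipase D genes, the other called ones were MpPLD7, higher by 3.70 ± 0.57 and under 1 CPM in intact thallus, and MpPLD8, lower at -0.63 ± 0.11. Of 14 fatty acid desaturases, which add the double bonds that lipoxygenases need, 7 were higher and 4 lower. MpFAD8 went from 75.6, 71.7 and 71.8 CPM to 406, 305 and 217 CPM, a log2 change of 2.08 ± 0.19. MpFAD6 and MpFAD11 rose by 1.88 ± 0.19 and 1.25 ± 0.08, and the 4 other higher members by 0.48 at most. The lower ones were MpFAD9, MpFAD1, MpDES6 and MpDES5, between -0.74 and -0.35.

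Of 15 tested lipoxygenases, 7 were higher and 3 lower, with a median log2 change of 0.66 against -0.02 over all tested genes. MpLOX2 rose from 144, 158 and 162 CPM to 2034, 1704 and 1748 CPM, or 3.56 ± 0.11 on the log2 scale (edgeR adjusted p = 4.43e-13). MpLOX4 rose from 6.73, 8.74 and 6.67 CPM to 729.8, 470.3 and 412 CPM, a log2 change of 6.19 ± 0.34. All 3 crushed libraries lay far above the intact ones for both genes, and crushed replicate 1 was the highest each time. MpLOX8 stood at 0.534, 1.21 and 1.43 CPM in intact thallus and 400.4, 239.9 and 199 CPM in crushed lobes. MpLOX6 was close to silent before wounding, at 0.0712, 0.113 and 0.477 CPM, and reached 104, 60.7 and 50.05 CPM. Its log2 change was 8.31 ± 0.57 with all libraries and 9.53 without intact replicate 3. The other higher members were MpLOX10, MpLOX16 and MpLOX14, by 2.11, 1.84 and 1.30. MpLOX13, MpLOX12 and MpLOX9 fell by 1.36, 1.22 and 0.80.

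Both tested P450s of the CYP74 family, which holds the allene oxide synthases, rose. MpCYP74N2 went from 218, 259.8 and 231 CPM to 2195, 2044 and 1644 CPM, a log2 change of 3.05 ± 0.13. MpCYP74N1 went from 71.2, 77 and 75.5 CPM to 248, 221 and 219 CPM, or 1.62 ± 0.07, and its SD within a group was 16 CPM or less. In the signalling module the repressor gene MpJAZ moved far more than its partners. MpJAZ stood at 32.8, 34.4 and 37.7 CPM in intact thallus and 208, 192 and 162 CPM in crushed lobes, a log2 change of 2.42 ± 0.10. The receptor gene MpCOI1 changed by -0.25 ± 0.05. The adaptor gene MpNINJA changed by 0.16 ± 0.05, and its call was lost under upper-quartile scaling (log2 change 0.07, adjusted p = 0.261). The corepressor gene MpTPL stood at 0.03 ± 0.06 and did not pass (edgeR adjusted p = 0.704).

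**Figure D2:**
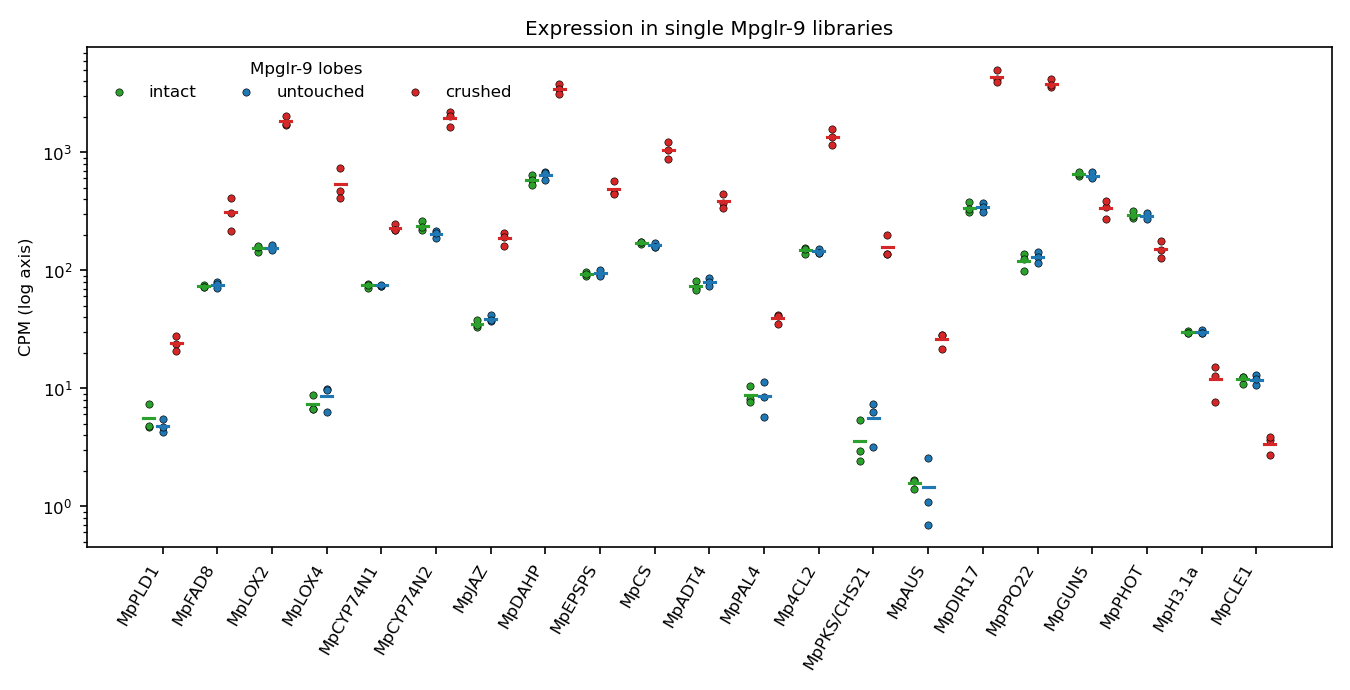
CPM (log axis) of 21 genes in single Mpglr-9 libraries, with 1 point per library and a bar at the mean of 3, for intact thallus (green), untouched lobes of wounded plants (blue) and crushed lobes (red). Green and blue points overlap or lie close for each gene, while crushed lobes are higher for the 17 genes from MpPLD1 to MpPPO22 and lower for MpGUN5, MpPHOT, MpH3.1a and MpCLE1.

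The route from the shikimate pathway to phenylalanine rose at most of its steps. Of 12 tested genes 8 were higher and 1 lower, with a median log2 change of 1.05. Together the 12 genes held 1440 to 1546 CPM in intact thallus and 5794 to 7210 CPM in crushed lobes. MpDAHP, for the synthase of the first step, went from 644, 579 and 531 CPM to 3771, 3432 and 3116 CPM, a log2 change of 2.56 ± 0.11. MpEPSPS, for the enzyme that glyphosate blocks, went from 96.8, 89.3 and 93.4 CPM to 571, 453 and 441 CPM. MpCS, for chorismate synthase at the end of the pathway, rose from 166, 173 and 173 CPM to 1215, 1040 and 882 CPM, or 2.61 ± 0.10. Arogenate dehydratases make phenylalanine from arogenate. MpADT4 rose from 81.5, 71.5 and 68.1 CPM to 443, 372 and 337 CPM. None of the 3 crushed libraries overlapped an intact one for these 4 genes, which held upward for 30.6% of all tested genes. The shikimate kinase gene MpSK2 was the lower member, at -0.69, while MpSK1 for a second such kinase rose by 2.11.

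Phenylpropanoid entry genes followed, with 11 of 16 higher and 1 lower (MpC4H3, by -0.31) and a median of 0.83. Phenylalanine ammonia-lyase removes the amino group of phenylalanine, and 4-coumarate:CoA ligase activates the product. Mp4CL2 rose from 139, 155 and 150.3 CPM to 1572, 1336 and 1153 CPM, a log2 change of 3.19 ± 0.12. Mp4CL1 rose from 25, 26.7 and 29.9 CPM to 192, 155 and 138 CPM. Among the lyases MpPAL4 rose from 8.19, 7.65 and 10.4 CPM to 41.9, 41.1 and 35.1 CPM. In the chalcone synthase family, whose enzymes build aromatic rings on such CoA esters, 12 of 22 were higher and 4 lower, with a median of 0.90. MpPKS/CHS21 rose from 2.96, 2.41 and 5.39 CPM to 199, 137 and 138 CPM, or 5.46 ± 0.37. MpPKS/CHS15 already had 299, 264 and 238 CPM in intact thallus and reached 819, 779 and 764 CPM. The 4 lower members were MpPKS/CHS7, MpPKS/CHS6, MpPKS/CHS-like1 and MpPKS/CHS-like3, between -2.38 and -0.32. Some copies of this family and of the dirigent and oxidase families lie side by side and may share reads, which the counting could split between them.

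Past that step the listed genes were called at shares near those of all tested genes, 27.6% higher and 27.2% lower. Of 27 flavonoid and auronidin genes 8 were higher (29.6%) and 9 lower (33.3%), with a median of -0.14. Under upper-quartile scaling 8 were higher and 14 lower. MpAUS, a polyphenol oxidase family gene named for aureusidin synthase, rose from 1.39, 1.66 and 1.65 CPM to 28.5, 28.4 and 21.4 CPM. Its log2 change was 4.06 ± 0.50. The other 3 of the largest rises were MpLAR-like3, MpDFR-like15 and MpDFR-like19, by 1.91, 1.40 and 1.20. Of 12 O-methyltransferases and related acyltransferases 2 were higher (16.7%, below the background) and 3 lower, with a median of -0.12. The higher ones were MpOMT13 and MpOMT8, the latter with 26.5, 30.3 and 22 CPM in intact thallus and 198, 163 and 155 CPM in crushed lobes.

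Some of the largest rises were in families that oxidise or couple phenolics. Dirigent proteins steer the coupling of phenoxy radicals, and 31 of 47 tested were higher and 2 lower (MpDIR24 and MpDIR25), with a median of 0.91. As a family they went from 975.2 to 1031 CPM up to 6132 to 7893 CPM. MpDIR17 alone rose from 311, 382 and 328 CPM to 5010, 4151 and 3958 CPM, a log2 change of 3.68 ± 0.12 (edgeR adjusted p = 5.07e-13). MpDIR39 stood at 0.178, 1.28 and 0.77 CPM in intact thallus and 595, 371 and 366 CPM in crushed lobes. Its log2 change was 9.23, and 9.87 without intact replicate 2. MpDIR41 had no count in any intact library and 33.4, 15.7 and 12.2 CPM in crushed lobes, so that it was at least 186-fold higher when intact thallus is set to 3 counts per library.

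Polyphenol oxidases use oxygen to turn phenols into quinones. As a family they went from 669.9 to 776.4 CPM up to 8196 to 9414 CPM, while the median change of its members was -0.01, with a sign that turned under several other settings. Of 36 tested 11 were higher (30.6%, near the background for calls of any size) and 2 lower (MpPPO10 and MpPPO56). All 11 were at least 2-fold higher, which held for 7.01% of all tested genes. The lower count was 1 without intact replicate 2 and 4 without intact replicate 3. Most of the family's counts in crushed lobes came from a pair of genes. MpPPO22 rose from 97.7, 138 and 125 CPM to 4154, 3546 and 3738 CPM, or 4.99 ± 0.20, and MpPPO42 from 80.9, 109.9 and 126 CPM to 2964, 2711 and 2757 CPM, or 4.73 ± 0.24. MpPPO31 had no count in intact replicates 1 and 2 and 0.22 CPM in replicate 3, against 182, 97.9 and 93.5 CPM in crushed lobes.

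Class III peroxidases, which use hydrogen peroxide to couple phenolics in the wall, went the other way by number. Of 102 tested 11 were higher and 47 lower, with a median of -0.79, and without intact replicate 2 the counts were 10 and 31. The family's summed level still rose, from 1414 to 1445 CPM up to 2546 to 3082 CPM. MpPOD164 accounted for most of that rise, with 319, 332 and 394 CPM in intact thallus and 1561, 1363 and 1214 CPM in crushed lobes. MpPOD167 rose from 10.8, 9.8 and 14.5 CPM to 167, 111 and 139 CPM, a log2 change of 3.57 ± 0.22. Against the 27.6% of all tested genes called higher and 27.2% called lower, the dirigent family had 66.0% higher and the peroxidases 46.1% lower.

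**Figure D3:**
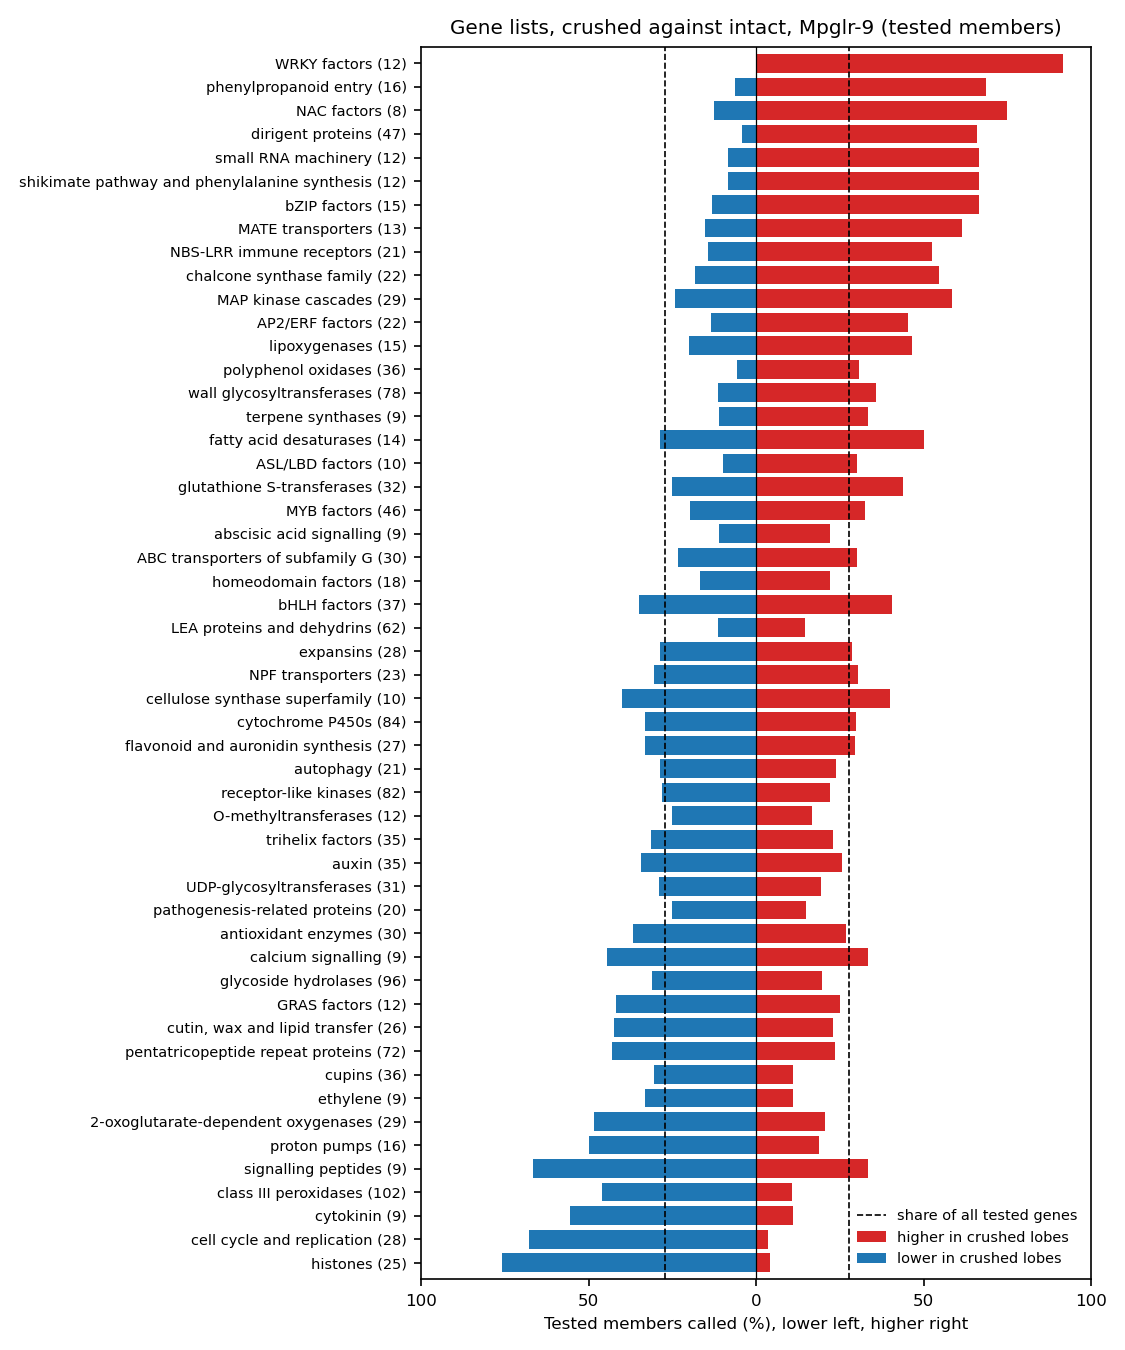
Share of the tested members of each list (number in brackets, lists of 8 or more) called higher (red, to the right) or lower (blue, to the left) in crushed against intact Mpglr-9 lobes at an adjusted p under 0.05. Dashed lines mark the shares over all tested genes, 27.6% higher and 27.2% lower, and the lists run from WRKY factors with 11 of 12 higher to histones with 19 of 25 lower.

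Transcription factor families differed in how many members rose, beside the 27.6% higher and 27.2% lower of all tested genes. WRKY factors, which bind W-boxes in defence gene promoters of flowering plants, had 11 of 12 higher and none lower, with a median of 0.89. MpWRKY11, the member with the most reads, rose from 1008, 1032 and 928 CPM to 2085, 1953 and 1761 CPM, a log2 change of 0.97 ± 0.08. MpWRKY10 rose from 21.1, 21.5 and 21.6 CPM to 77.4, 66.1 and 46.1 CPM. The largest WRKY change was that of MpWRKY7, 2.97 ± 0.66, on 0.107, 0.377 and 1.36 CPM in intact thallus. It was 4.31 without intact replicate 3, and the call was lost with the replicate block on the groups compared only (adjusted p = 0.0544).

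Of 22 AP2/ERF factors, a family that includes ethylene-responsive regulators, 10 were higher and 3 lower (MpERF16, MpERF12 and MpERF17). MpERF15 rose from 11.8, 12.1 and 17.4 CPM to 244, 201 and 181 CPM, or 3.92 ± 0.26, and MpERF20 from 4.24, 3.84 and 4.66 CPM to 41.7, 29.8 and 23 CPM. The lower count was 1 without crushed replicate 2, and likewise without intact replicate 2. Of 37 bHLH factors 15 were higher (40.5%) and 13 lower (35.1%), and MpBHLH4 went from 0.961, 1.73 and 2.9 CPM to 466, 388 and 327 CPM. Its log2 change was 7.72 ± 0.40. Of 46 MYB factors 15 were higher (32.6%) and 9 lower (19.6%), and under upper-quartile scaling 10 and 11. MpR2R3-MYB20 rose from 72.2, 69.95 and 60.5 CPM to 314, 285 and 212 CPM.

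NAC factors had 6 of 8 higher, with MpNAC7 going from 24.4, 24.5 and 32.7 CPM to 160.3, 132 and 101 CPM, and MpNAC5 lower at -0.42. The call of MpNAC5 was lost with only the groups compared in the fit (adjusted p = 0.0677) and without crushed replicate 1 or 2 or intact replicate 1 or 3, where it stood between -0.42 and -0.27 (edgeR adjusted p from 0.0557 to 0.147). Of 15 bZIP factors 10 were higher by 0.89 at most and 2 lower (MpBZIP5 and MpBZIP10), neither of which was called without intact replicate 3. GRAS, trihelix and homeodomain factors moved in both directions, with 3, 8 and 4 higher and 5, 11 and 3 lower of 12, 35 and 18. Without crushed replicate 3 the lower GRAS genes were 3. MpGRAS4 rose by 1.76 ± 0.17. MpGRAS7 rose by 3.64 ± 0.48 from 0.249, 0.339 and 0.77 CPM, and by 4.26 without intact replicate 3.

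MAP kinase cascade genes, which relay stress signals by phosphorylation, had 17 of 29 higher and 7 lower, with a median of 0.19. MpMAPKKK10 rose from 19.1, 17 and 31 CPM to 153, 119 and 96.7 CPM, a log2 change of 2.46 ± 0.21. MpMKK3 and MpMPK1, named for later tiers of such cascades, moved by less, at 1.03 ± 0.08 and 0.52 ± 0.05. Whether they act below MpMAPKKK10 was not tested. Of 82 receptor-like kinases 18 were higher (22.0%) and 23 lower (28.0%), beside 27.6% and 27.2% of all tested genes. The lectin-type kinase gene MpRLK-Pelle_L-LEC28 rose from 4.2, 4.37 and 4.77 CPM to 67.4, 43.4 and 29.4 CPM. NBS-LRR immune receptor genes had 11 of 21 higher and 3 lower (MpNBS-LRR8, MpNBS-LRR15 and MpNBS-LRR9).

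Calcium and peroxide signalling genes moved by 1.18 or less among the called ones. Of 9 calcium signalling genes 3 were higher and 4 lower. The vacuolar channel gene MpTPC2 rose from 13.1, 11.9 and 13.8 CPM to 33.6, 28.2 and 25.8 CPM and MpTPC3 by 0.36, while MpTPC1 fell by 0.43. The calmodulin-like gene MpCML42 changed by 1.10 ± 0.25, and lost its call with the replicate block on the groups compared only (adjusted p = 0.0782). MpCBL-B, MpCAMTA and MpCIPK-B were lower, between -0.62 and -0.26. Of the NADPH oxidases that make superoxide at the cell surface, MpNOX2 rose by 0.26 ± 0.06 and MpNOX1, at 0.05 ± 0.05, did not pass (edgeR adjusted p = 0.483). Plasma membrane proton pumps, whose activity sets the membrane potential, had 8 of 16 lower and 3 higher, and 5 lower without intact replicate 2. MpHA14 fell from 168, 155 and 139 CPM to 43.7, 51.6 and 57.3 CPM.

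Among 9 signalling peptide genes 3 were higher and 6 lower. MpCLE1 and MpCLE2 encode peptides that act on the stem cell zone of the thallus, and they moved in opposite directions. MpCLE1 fell from 10.9, 12.5 and 12.5 CPM to 3.61, 2.74 and 3.83 CPM, a log2 change of -1.82 ± 0.20. MpCLE2 rose from 12.4, 11.7 and 11 CPM to 46.2, 30.6 and 31.4 CPM, or 1.63 ± 0.14. MpIDA2 rose by 5.12 ± 0.52 from 0.142, 0.0754 and 0.147 CPM, and by 4.50 without crushed replicate 1. MpRALF2 rose by 0.23.

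Of 35 auxin genes 9 were higher (25.7%) and 12 lower (34.3%), beside 27.6% and 27.2% of all tested genes. MpGH3A, for an enzyme of a family that joins amino acids to hormone acids, rose from 55.4, 62 and 50.9 CPM to 778, 615 and 504 CPM, a log2 change of 3.49 ± 0.16. The auxin efflux carrier gene MpPIN3 went from 30.7, 43.8 and 28.7 CPM to 156, 121 and 87.1 CPM, or 1.82 ± 0.30. The cytokinin receptor gene MpCHK1 rose by 1.05 ± 0.08, the only one of 9 cytokinin genes that was higher in this fit, while the cytokinin oxidase gene MpCKX2 fell by 1.26 and 4 others were lower. The lower count of 5 (55.6%) was 3 when crushed replicate 1 or any intact replicate was left out. Ethylene and abscisic acid genes had 1 and 2 of 9 higher and 3 and 1 lower, with the called ones all within 0.65. Over all tested members the abscisic acid list went down to -0.8. Of 4 strigolactone and karrikin signalling genes MpKAI2B and MpSMXL were higher, by 1.00 ± 0.26 and 0.64 ± 0.14, and MpKAI2B was not called with the replicate block on the groups compared only (adjusted p = 0.097).

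Transporters and detoxifying enzymes held further strong rises. MATE transporters, which export organic compounds, had 8 of 13 higher and 2 lower (MpMATE12 and MpMATE8), and 1 lower without intact replicate 1 or 3 or any crushed replicate. MpMATE15 rose from 3.49, 2.3 and 3.26 CPM to 77.5, 70.8 and 53.5 CPM, a log2 change of 4.47 ± 0.20. In the NPF family, which carries nitrate, peptides and hormones, MpNPF21 rose from 123, 120.0 and 114 CPM to 1119, 909 and 883 CPM. Of 23 tested NPF genes 7 were higher and 7 lower, or 30.4% each way. Cytochrome P450s had 25 of 84 higher (29.8%) and 28 lower (33.3%). For calls of any size both lists lay near the shares of all tested genes, 27.6% higher and 27.2% lower. MpCYP815A1 rose from 13.6, 15 and 14 CPM to 671, 545 and 444 CPM, and MpCYP813B1 fell from 17, 18.2 and 10.2 CPM to 0.914, 1.97 and 0.981 CPM. Of 29 oxygenases of the 2-oxoglutarate-dependent class C 6 were higher (20.7%) and 14 lower (48.3%). MpDOXC16 went from 2.24, 2.34 and 2.82 CPM to 79.2, 55.4 and 58.2 CPM.

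Of 32 glutathione S-transferases 14 were higher and 8 lower, and MpGST19 rose from 202, 175 and 159 CPM to 854, 779 and 601 CPM. In the ascorbate-glutathione cycle, which removes peroxide, MpMDHAR2 rose by 1.61 ± 0.08 and MpGR1 by 1.34 ± 0.11, while MpMDHAR3 fell by 1.15. The antioxidant list as a whole had 8 of 30 higher (26.7%) and 11 lower (36.7%). The chaperone gene MpHSP90-2 rose from 224, 217 and 217 CPM to 752, 631 and 722 CPM, whereas the heat shock factor gene MpHSF1 fell by 0.54. Pathogenesis-related genes had 3 of 20 higher and 5 lower. Without intact replicate 3 the counts were 8 and 3, so that the direction of this list rested on that library. Late embryogenesis abundant and dehydrin genes rested on single libraries too. They had 9 of 62 higher (14.5%) and 7 lower (11.3%). Their median was -0.30, but 0.36 without intact replicate 3. The lower ones were 2 to 4 without that library, intact replicate 1 or any crushed replicate. In that list MpDHN2 rose from 31.5, 21.3 and 34 CPM to 172, 169 and 162 CPM.

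Small RNA genes had 8 of 12 higher and 1 lower (MpRDR5/6-1). The RNA-dependent RNA polymerase gene MpRDR1/2-1 rose from 9.58, 9.87 and 9.6 CPM to 28.9, 26.2 and 22.7 CPM and the Dicer gene MpDCL3 from 3.99, 5.77 and 4.66 CPM to 11.2, 10.7 and 12.5 CPM. Cell wall lists are given beside the 27.6% higher and 27.2% lower of all tested genes. Glycosyltransferases of the wall had 28 of 78 higher (35.9%) and 9 lower (11.5%), and glycoside hydrolases 19 of 96 higher (19.8%) and 30 lower (31.2%). Expansins had 8 of 28 in each direction (28.6%), near the background. Under upper-quartile scaling the glycosyltransferases had 24 higher and 14 lower, and the expansins 5 and 9. Without intact replicate 1 the expansins had 5 higher and 7 lower. MpCSLD9, a cellulose synthase-like gene, rose from 1545, 1404 and 1420 CPM to 2267, 2183 and 2077 CPM. Among further lists, ABC transporters of subfamily G had 9 of 30 higher and 7 lower, UDP-glycosyltransferases 6 of 31 higher and 9 lower, and cupins 4 of 36 higher and 11 lower. Terpene synthases had 3 of 9 higher (MpFTPSL8, MpFTPSL2 and MpMTPSL-like, by 3.01, 1.71 and 1.25) and 1 lower (MpMTPSL1). Autophagy genes, at 5 of 21 higher (23.8%) and 6 lower (28.6%), stayed within 0.48, and under upper-quartile scaling had 3 higher and 11 lower. Without crushed replicate 1 or 2 they had 3 higher and 4 lower.

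Most listed genes of cell division and of chlorophyll synthesis were lower. Of 25 histones 19 were lower and MpH2B.1 was higher, with a median of -0.75, and the list went from 2552 to 2597 CPM down to 1889 to 2096 CPM. MpH3.1a fell from 30.4, 29.2 and 29.5 CPM to 7.73, 12.8 and 15.2 CPM, a log2 change of -1.32 ± 0.25. Of 28 cell cycle and replication genes 19 were lower, 13 without crushed replicate 1, and the higher one was MpSMR, for a cell cycle inhibitor. The cyclin gene MpCYCA fell by 0.94. In such bulk samples fewer dividing cells and less RNA per dividing cell cannot be told apart.

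All 5 genes of the Rubisco and chlorophyll list were lower, by between -1.04 and -0.67. MpGUN5 encodes a subunit of magnesium chelatase, the first enzyme of the chlorophyll branch, and fell from 629, 652 and 687 CPM to 271, 344 and 388 CPM. MpCHLD, for another subunit, fell from 209, 228 and 231 CPM to 84.8, 108 and 133 CPM, and MpGUN4, for its activator, from 282, 323 and 297 CPM to 142, 162 and 154 CPM. MpRBCS, for the small subunit of Rubisco, went from 92.8, 104 and 113 CPM to 56.8, 61 and 77 CPM. The blue light receptor gene MpPHOT, which places chloroplasts, fell from 276, 289 and 319 CPM to 127, 147 and 177 CPM, and MpCRY and MpPHY by 0.33 and 0.17. The call of MpPHY was lost without crushed replicate 1 (adjusted p = 0.0863). Pentatricopeptide repeat genes, most of which process organelle RNA, had 31 of 72 lower and 17 higher. Among genes of cutin, wax and lipid transfer 11 of 26 were lower and 6 higher, with 7 lower without crushed replicate 1, and MpCER1 for alkane synthesis fell from 117, 108 and 118 CPM to 49, 56.2 and 62.8 CPM.

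Steep falls were rarer than steep rises and hit genes of few reads. At 4-fold or more, 2.83% of genes under 1 CPM were lower and 6.61% higher, while between 20 and 100 CPM the shares were 0.07% and 1.85%. Among genes with a symbol and at least 5 CPM in intact thallus, MpCupin84 fell from 35.9, 30.5 and 38 CPM to 3.15, 3.77 and 5.75 CPM, or -3.04 ± 0.29. The glycosyltransferase gene MpUGT11 fell from 35.7, 35.8 and 27 CPM to 9.19, 5.92 and 5.47 CPM. MpTPS6 had a fall of -3.54 ± 0.77 that rested on unequal intact libraries, 12.9, 28.5 and 7.55 CPM, and was -2.86 without intact replicate 2. The ammonium transporter gene MpAMT1.4 stood at 21.3, 20.5 and 10.2 CPM in intact thallus and 4.8, 4.53 and 2.57 CPM in crushed lobes. Among genes without a symbol, Mp7g05640 fell from 167, 192 and 182 CPM to 18.8, 31.2 and 35.2 CPM.

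Some genes were switched on from almost nothing. Of 4736 identifiers with at most 3 counts in each intact Mpglr-9 library, 45 entered the test. The filter on low counts admitted them through other groups, so the 45 had to differ, and that all 45 were called higher is no finding. Of the 45, 12 had no count in any intact library and 12 reached a mean of 5 CPM in crushed lobes. At most 3 counts were also present in each untouched Mpglr-9 library for 35 of them. Mp1g09220 had no count in intact thallus and 26.8, 23.8 and 16.4 CPM in crushed lobes, at least 203-fold higher when intact thallus is set to 3 counts per library. Mp5g21760 was not silent but close to it, with 0.249, 1.28 and 2.16 CPM in intact thallus and 1350, 880.0 and 790.4 CPM in crushed lobes, and its neighbour Mp5g21750 went from 0, 0.0754 and 0.0367 CPM to 65.1, 42.2 and 27.4 CPM. The files and the names table give neither a symbol.

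Strongly rising genes lay next to each other more often than the background. The next tested gene along the chromosome was also at least 4-fold higher for 23.2% of the genes at least 4-fold higher, 99 of 426, against 3.17% of all tested genes. For the 4-fold lower genes the share was 8.4% against 0.62%. There were 18 stretches of 3 or more neighbours that were all at least 4-fold higher, and they held 70 of the 426 genes. The longest held 7 genes on chromosome 2 and included MpBHLH2, MpBHLH3 and MpBHLH4, which rose by 2.01 ± 0.23, 2.86 ± 0.27 and 7.72 ± 0.40. A stretch of 6 on chromosome 5 held MpDIR65, MpDIR61, MpDIR42, MpDIR41, MpPPO28 and MpDIR39. There the intact libraries had 1.28 CPM at most and MpDIR61 reached 115, 61.5 and 47.4 CPM in crushed lobes. On chromosome 4 MpPAL6, MpPKS/CHS12, MpPAL-like2, Mp4g14170 and MpPKS/CHS13 stood in a row, with MpPKS/CHS13 going from 6.48, 6.11 and 17.2 CPM to 209, 182 and 148 CPM. Its change was 4.18 ± 0.39, and 4.84 without intact replicate 3. On chromosome 3 MpDIR1 and MpDIR2 stood beside MpPIWIb and MpPIWIa, of a family that binds small RNAs in animals. MpPIWIb went from 0.178, 0.188 and 0.147 CPM to 7.59, 6.19 and 4.25 CPM. The stretches were picked after their values were seen. Whether reads shared between copies, or overlap of transcripts, contributed was not tested.

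**Figure D4:**
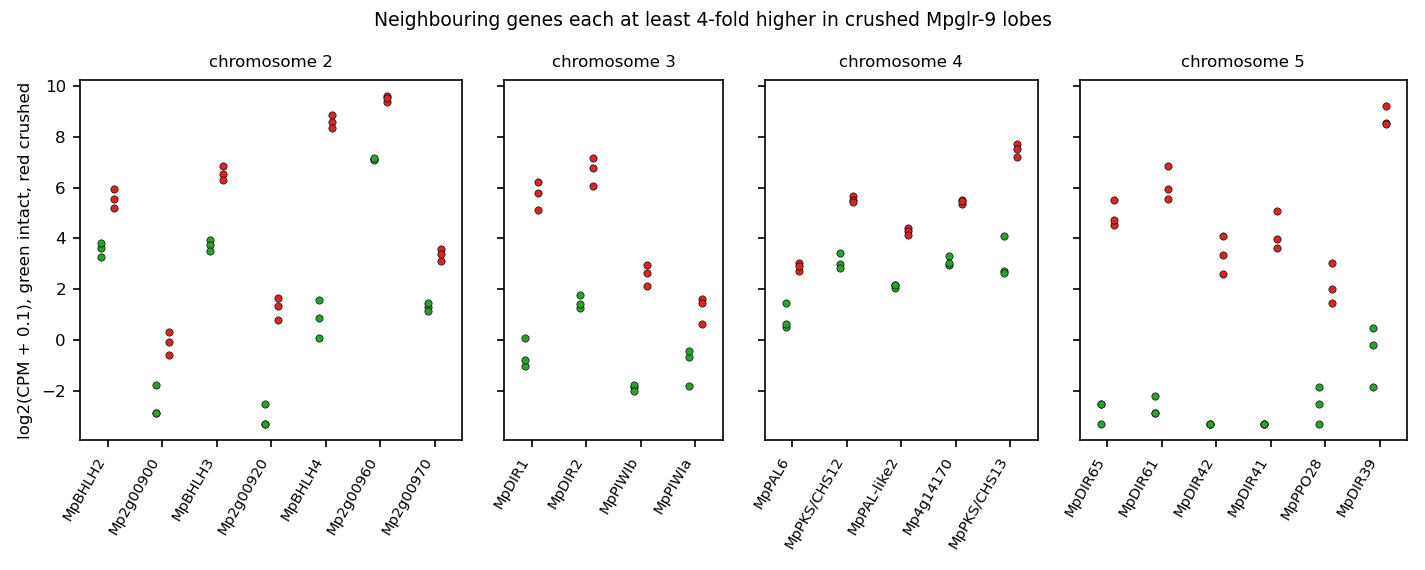
Level as log2(CPM + 0.1) of neighbouring tested genes in 4 stretches on chromosomes 2, 3, 4 and 5, in the order of their identifiers, with 1 point per intact (green) and crushed (red) Mpglr-9 library. Red lies above green for each gene, and in the chromosome 5 stretch the intact libraries have 1.28 CPM at most.

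Chromosome 5 had the largest share of genes at least 4-fold higher, 4.81%, and chromosome 1 the smallest of the numbered ones, 2.18%. None of 40 tested genes of the V chromosome rose that much. With 3.17% of all tested genes at that level, 40 genes are too few to set this chromosome apart.

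The crushed libraries did not respond equally. This was read from 437 genes chosen in wild type, where they were at least 4-fold higher (3.25% of tested genes), so that the mutant libraries did not set the size of the change used to choose them, although they shared the filter, the scaling and the estimate of spread. Their median rise over the intact mean, on log2(CPM + 1), was 2.51 in crushed Mpglr-9 replicate 1, 2.20 in replicate 2 and 2.00 in replicate 3. Replicate 1 had the highest value for 394 of the 437, replicate 2 for 26 and replicate 3 for 17. For 649 genes at least 2-fold lower in wild type (4.83%) the medians were -1.01, -0.87 and -0.82. Leaving out crushed replicate 1 gave 6418 called genes instead of 7369. The calls also fell without crushed replicate 2 or 3, to 6807 and 7177, and without an intact replicate, to between 6708 and 6905. How hard each lobe was crushed is not recorded in the labels and was not tested.

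**Figure D5:**
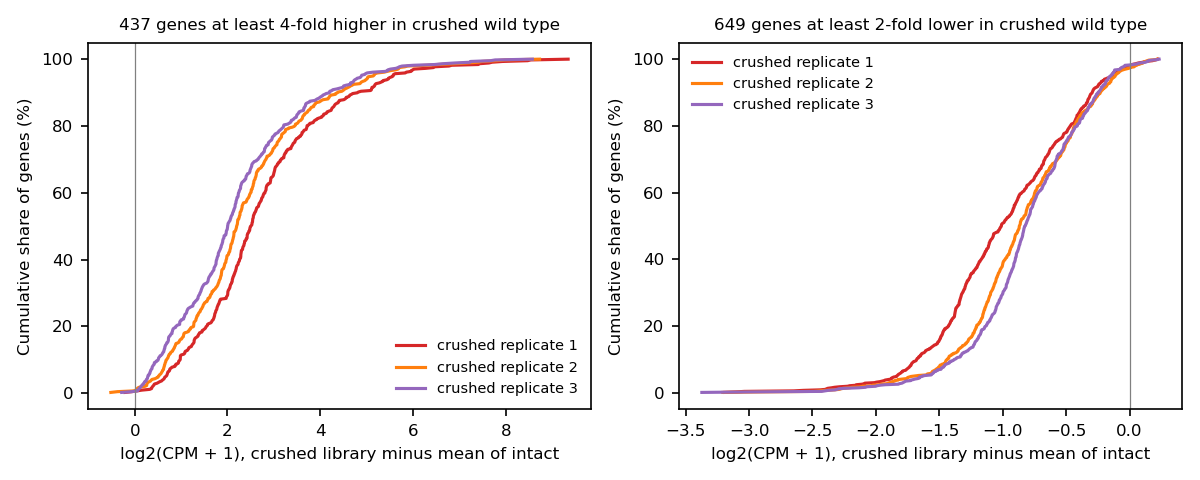
Cumulative share (%) of 437 genes at least 4-fold higher (left) and 649 genes at least 2-fold lower (right) in crushed wild-type lobes, by their change in each crushed Mpglr-9 library, as log2(CPM + 1) minus the mean of the 3 intact libraries. The curve of crushed replicate 1 lies farthest from 0 in both panels, with medians of 2.51 and -1.01.

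Markers of thallus cell types were read beside these results. Oil body cells store terpenoids and have 5 listed markers. Their summed level rose from 137.0 to 155.7 CPM in intact thallus to 390.1 to 502.2 CPM in crushed lobes. The rise came from MpC1HDZ, a homeodomain factor needed for oil body cells, which went from 108, 101 and 91.2 CPM to 455, 396 and 339.9 CPM. MpR2R3-MYB2 changed by 0.27 ± 0.09, with its call lost under upper-quartile scaling (adjusted p = 0.101), and MpSYP12B, MpERF13 and MpABCG1 did not pass, at 0.24, 0.16 and -0.19. Of 22 markers of the notch and of dividing cells 17 were lower, and MpCLE2 was the higher one. Their summed level went from 1596 to 1629 CPM down to 1299 to 1391 CPM. This list recounts histone and cyclin genes of the lists above, such as MpH3.1a and MpCYCA, so it is not separate evidence. The notch gene MpCLV1 did not pass. Rhizoid, gemma cup, air pore and reproductive markers had 2, 3, 2 and 5 tested members. Of these 2 rhizoid markers and 1 gemma cup marker were called lower, 2 reproductive ones higher, and no air pore one was called. Each lay between -0.51 and 0.69 except the gemma cup gene MpGCAM1 at 1.25. That gemma cup gene did not pass here but was called under 7 of the alternatives, among them DESeq2 (adjusted p = 0.0331) and limma-voom (adjusted p = 0.0127), and stood at 1.78 without intact replicate 3 (edgeR adjusted p = 0.0167). None of the listed markers was at 0 in all 6 libraries, and the part of cell composition in the results was not tested.

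In untouched lobes of wounded Mpglr-9 plants no gene was called in the main fit. Against intact thallus edgeR called 0 of 13450 genes, DESeq2 0 and limma-voom 0, with 810 genes (6.02%) at an unadjusted p under 0.05. This comparison shares the intact libraries with the main one. Crushed against untouched lobes gave 7124 called genes (53.0%), 3597 higher (26.7%) and 3527 lower (26.2%). MpLOX2 stood at 158, 147 and 163 CPM in untouched lobes, MpJAZ at 41.9, 37 and 37.7 CPM and MpDIR17 at 371, 342 and 313 CPM, each close to its intact values. The 95% interval of the untouched change was -0.19 to 0.21 for MpLOX2 and -0.05 to 0.35 for MpJAZ on the log2 scale. Changes inside these bounds remain compatible with the data. With replicate number as a block and only the untouched and intact groups in the edgeR fit, 45 genes were called. Of these 13.3% were higher, and their log2 changes ran from -2.27 to 1.4. In that fit 1553 genes had an unadjusted p under 0.05.

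Whether the response differed from that of wild type was tested directly, as the change in Mpglr-9 minus the change in wild type. No gene was called by edgeR, DESeq2 or limma-voom, and 335 genes (2.49%) had an unadjusted p under 0.05. For leading genes with a small SE of the change the intervals of the difference were narrow. MpLOX2 changed by 3.56 ± 0.11 in Mpglr-9 and 3.46 ± 0.11 in wild type, a difference with a 95% interval of -0.18 to 0.39. MpCYP74N2 had -0.38 to 0.28, MpJAZ -0.21 to 0.34, MpDAHP -0.14 to 0.41, Mp4CL2 -0.33 to 0.26 and MpDIR17 -0.12 to 0.48. A difference beyond these bounds is outside the interval for these genes, while one inside them remains compatible with the data. Leading genes with a larger SE, such as MpDIR39 below, were bounded less closely.

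Of the genes called in Mpglr-9, 872 were not called in wild type, and 972 were called in wild type alone, where 55.5% of the tested genes were called in all. Such a split does not show that the genotypes differ. Of the 872, 110 changed at least 2-fold in Mpglr-9, and for 88 of those the interval of the difference between genotypes included 0. The 4 smallest unadjusted p-values among genes with at least 5 CPM belonged to MpLTP-like68, MpDIR5, Mp4g17710 and MpCYP816A1. MpDIR5, a dirigent gene, stood at 13.8, 12 and 12.5 CPM in intact and 349.8, 303 and 343 CPM in crushed Mpglr-9. Its log2 change of 4.70 ± 0.19 in Mpglr-9 against 3.69 ± 0.18 in wild type gave a difference of 1.01 ± 0.24 (edgeR unadjusted p = 0.000844, adjusted p = 1). Intact wild-type libraries held 13.1, 17.5 and 26.7 CPM of it. Without intact wild-type replicate 1 it was the 1 gene called (adjusted p = 0.0396). MpLTP-like68, named for lipid transfer proteins, rose by 0.91 ± 0.11 in Mpglr-9 and 1.53 ± 0.11 in wild type (edgeR unadjusted p = 0.000727, adjusted p = 1). MpCYP816A1 rose by 0.42 ± 0.08 in Mpglr-9 and stood at -0.03 ± 0.08 in wild type. Mp4g17710 stood at 0.00 ± 0.05 and -0.29 ± 0.05.

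MpDIR39 stood at 1.58, 3.94 and 7.24 CPM in intact wild type against 0.178, 1.28 and 0.77 CPM in intact Mpglr-9, and its crushed means were 444 ± 131 CPM in Mpglr-9 and 400.0 ± 76.9 CPM in wild type. The difference in log2 change was 2.70 ± 0.76 and did not pass (edgeR adjusted p = 1).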

How the data were processed

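Poly-A RNA of 18 pooled thallus samples was sequenced as paired reads, per the labels' protocols. The authors deposited 1 table of raw read counts for 19355 gene identifiers; per the submitters' processing notes they used HISAT2 and HTSeq, with no version, strand setting or genome build given in the sources used here. Symbols came from the RefSeq gene table of assembly MpTak2_v7.1, which matched 17384 identifiers (89.8%) and named 3091. Without a stated strand setting, reads of overlapping genes cannot be told apart.

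The counts were filtered with filterByExpr, scaled by TMM and fitted with 6 group means over all 18 libraries in edgeR 4.0.16 (R 4.3.3, glmQLFit with robust dispersion, glmQLFTest, two-sided), which was tested on simulated data. SE is the log2 fold change divided by the square root of F, and 95% intervals are 1.96 SE each way. A gene at 0 was set to 3 counts per library for a fold, a limit that covers counting error only. limma 3.58.1 voom and DESeq2 1.42.0 were alternatives, with other scalings and filters, fewer groups in the fit, a replicate block and each library left out.

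The comparison and the gene lists were chosen with earlier results of these data known. Genes were named by rule: the largest called changes with at least 5 CPM in the higher group, up to 4 called members of each list and its member with the most reads, the 4 smallest interaction p-values, and up to 5 genes silent in intact thallus. From these candidates the text picked by role.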

Additional observations from a re-analysis of the deposited data

How the results depend on the processing

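Calls of crushed against intact Mpglr-9 lobes ranged from 6779 with only the groups compared in the fit to 7676 with a replicate block over all libraries, beside 7369 as reported, and from 6418 to 7177 when 1 of the 6 libraries was left out. Between 85.6% and 99.6% of the 7369 genes were called again in the same direction under each of these settings. Upper-quartile scaling gave 7436 calls with fewer of them higher, so changes near 0 have no direction independent of the scaling.

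Deviations of same-numbered intact and crushed Mpglr-9 libraries correlated at 0.08, 0.22 and 0.28, and those of differently numbered ones at -0.26 to 0.11. Between intact and untouched Mpglr-9 the values were 0.04, 0.38 and 0.45, and -0.46 to 0.31 for different numbers. Not every same-numbered pair passed 0.1, so the main fit did not pair these groups. This limit does not exclude a shared effect of the replicate number, and the block was fitted as an alternative. Every pair passed 0.1 between some other groups, with 0.17, 0.11 and 0.31 between crushed and untouched Mpglr-9, 0.25, 0.12 and 0.39 between crushed lobes of both genotypes, and 0.31, 0.49 and 0.68 between intact thalli of both. Not every library correlated best with its own number. The block left 0 interaction calls in both fits, and gave 7465 and 7100 calls for crushed against untouched lobes, beside 7124. With the replicate block the calls of crushed against intact lobes were 7676 over all libraries and 6889 with only the groups compared, and the untouched comparison gave 45 calls instead of 0 in the latter fit. The interaction gave 0 to 1 called genes when single libraries were left out. No candidate gene for naming that was called turned its direction under a setting that gave it a value. The depth of 21678546 to 27856158 counts left genes under 1 CPM with a median SE of 0.5, against 0.06 over 100 CPM.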
